A study of Homo sapiens with 8 samples.

Results

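Splicing factor and splicing kinase genes were followed in SJRH30 cells, a human alveolar rhabdomyosarcoma line, through 24 h of hypoxia. The members were chosen by gene name: probe sets annotated with a single symbol that starts with SRSF, HNRNP, SF3A, SF3B, SNRP, PRPF, CLK or SRPK. This gave 130 of the 22277 probe sets on the array, for 62 genes. Of these, 119 probe sets measured 55 splicing factor genes, and 11 probe sets measured 7 kinase genes. A total of 26 genes had 1 probe set and 36 had several, up to 6 for HNRNPD. Probe sets of one gene share a target and are not replicates. The rule left out 1 pseudogene probe set and 19 probe sets annotated with several symbols.

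Splicing removes introns from precursor messenger RNA. The spliceosome that does this is built from small nuclear RNAs coated with Sm proteins (SNRP genes), from the U2-associated SF3A and SF3B complexes, which hold the branch point, and from the PRPF proteins of the U4/U6.U5 particle. SR proteins (SRSF genes) mostly bind exon enhancers and favour inclusion of the exon, while many hnRNP proteins (HNRNP genes) oppose them, and the balance shifts the choice between isoforms. SRPK kinases phosphorylate the serine and arginine repeats of SR proteins in the cytoplasm, which allows their import into the nucleus, and CLK kinases add further phosphates there and release SR proteins from nuclear speckles. Several of these genes, SR protein genes above all, also regulate their own messenger RNA through alternative splicing, retained introns and unproductive isoforms. In muscle cells and in tumours the choice of isoforms changes with differentiation, stress and oxygen supply.

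The 4 groups were cells taken before hypoxia (0 h) and cells held for 6, 12 or 24 h at 1% oxygen in a gassed chamber, with 2 arrays each that the labels call biological replicates. All groups were the unmodified line, grown in the same serum-supplemented medium, and 10 µg of total RNA from each sample was amplified in a single round for a 3′-based Affymetrix array. The design asks which genes respond at each time. Normoxic cells of matching later times were not analysed here, and an effect of hours in culture cannot be told apart from one of hypoxia. With 2 arrays a group, p-values measure the spread between these cultures of one line.

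Values are log2 probe set summaries deposited by the authors, and the tests are limma's moderated tests across all 22215 probe sets that are not controls, with Benjamini-Hochberg adjustment over all of them. A probe set was called when its adjusted p was under 0.05, and "rose" and "fell" are used only of called probe sets. Median values of the 8 arrays lay between 6.69 and 6.72. The interquartile range was 3.68 and 3.63 on the 12 h arrays and 3.77 to 3.81 on the other 6. Replicate arrays differed by a median of 0.04, 0.05, 0.04 and 0.10 over the members at 0, 6, 12 and 24 h. Among 9 myogenic markers, 7 lay in the brighter 50% of probe sets, including MYOD1, MYOG and DES, while MYF5 and MYF6 did not. The labels also call the cells muscle fibroblasts. Of 9 fibroblast markers, only COL1A1 and COL3A1 were in the brighter 50%, and DCN, LUM, THY1 and PDGFRB were not. The summed log2 level of the fibroblast list was 56.7 and 57.3 at 0 h and 57.8 and 58.0 at 12 h, that of the myogenic list was 79.6 and 79.9 at 0 h and 79.9 and 80.3 at 12 h, and of both lists at most 1 gene was called in a direction at any time. None of 5 blood cell markers measured was in the brighter 50%, and none was called. Of 6 epithelial markers, EPCAM alone was in the brighter 50%, and it rose by 0.41 at 24 h (adjusted p = 0.0192). The summed level of that list was 31.8 to 32.1 at 0 h and 32.2 to 32.4 at 24 h. Of 5 endothelial markers, TEK alone was in the brighter 50%, and it rose by 0.31 at 6 h and 0.37 at 24 h (adjusted p = 0.0432 and 0.00789). The summed level of that list was 27.5 to 27.7 at 0 h and 28.4 to 28.9 at 24 h, while PECAM1, CDH5, VWF and KDR were not called. The part of such cells in the results was not tested.

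Most splicing genes kept within narrow limits. After 6, 12 and 24 h, 121, 119 and 123 of the 130 probe sets lay within 1.2-fold of their 0 h mean, or 93.1%, 91.5% and 94.6%. The same share over all probe sets was 92.4%, 80.3% and 83.0%. At 6 h, 4 members were called, 3 higher and 1 lower, or 3.08% of them against a background of 2.7% of all probe sets (1.85% higher and 0.855% lower). At 12 h, 19 members were called, 4 higher and 15 lower, or 14.6% against 16.2% of all probe sets (6.36% higher and 9.85% lower). At 24 h, 13 were called, 4 higher and 9 lower, or 10.0% against 14.7% (6.86% higher and 7.8% lower). In this fit the shares called are therefore close to or under the background at each time. Modelling a variance trend with intensity put them above it, at 10.8%, 33.1% and 30.0%, against 8.6%, 22.7% and 21.0%.

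Brightness bears on that reading, because dim probe sets are called less often. As many as 121 of the members lay in the brighter 50% of probe sets, and over those brighter 50% 4.74%, 25.7% and 24.1% were called at 6, 12 and 24 h. The members' shares of 3.08%, 14.6% and 10.0% lay below these. Calls to lower values at 12 h made up 11.5% of the members, 9.85% of all probe sets and 16.7% of the brighter 50%. Calls to higher values at 24 h made up 3.08%, 6.86% and 11.2% in the same order.

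At 12 and 24 h the share of members with a change below 0 was larger than that of all probe sets. At 6 h the count was 73 of 130 (56.2%), against 55.7% of all probe sets and 53.7% of the brighter 50%. At 12 h, 92 of 130 members (70.8%) had a log2 change below 0, against 48.9% of all probe sets and 61.9% of the brighter 50%. At 24 h the count was 93 (71.5%), against 54.2% and 55.6%. The shift was small: the members' median log2 change was −0.01, −0.09 and −0.06 at 6, 12 and 24 h, against −0.02, 0.00 and −0.02 for all probe sets and −0.01, −0.06 and −0.03 for the brighter 50%. The 12 h arrays have the narrower spread of values given above. After a further quantile normalization, which removes that difference, the members' median at 12 h was −0.05 and 13 members were called, all of them among the 19.

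**Figure D1:**
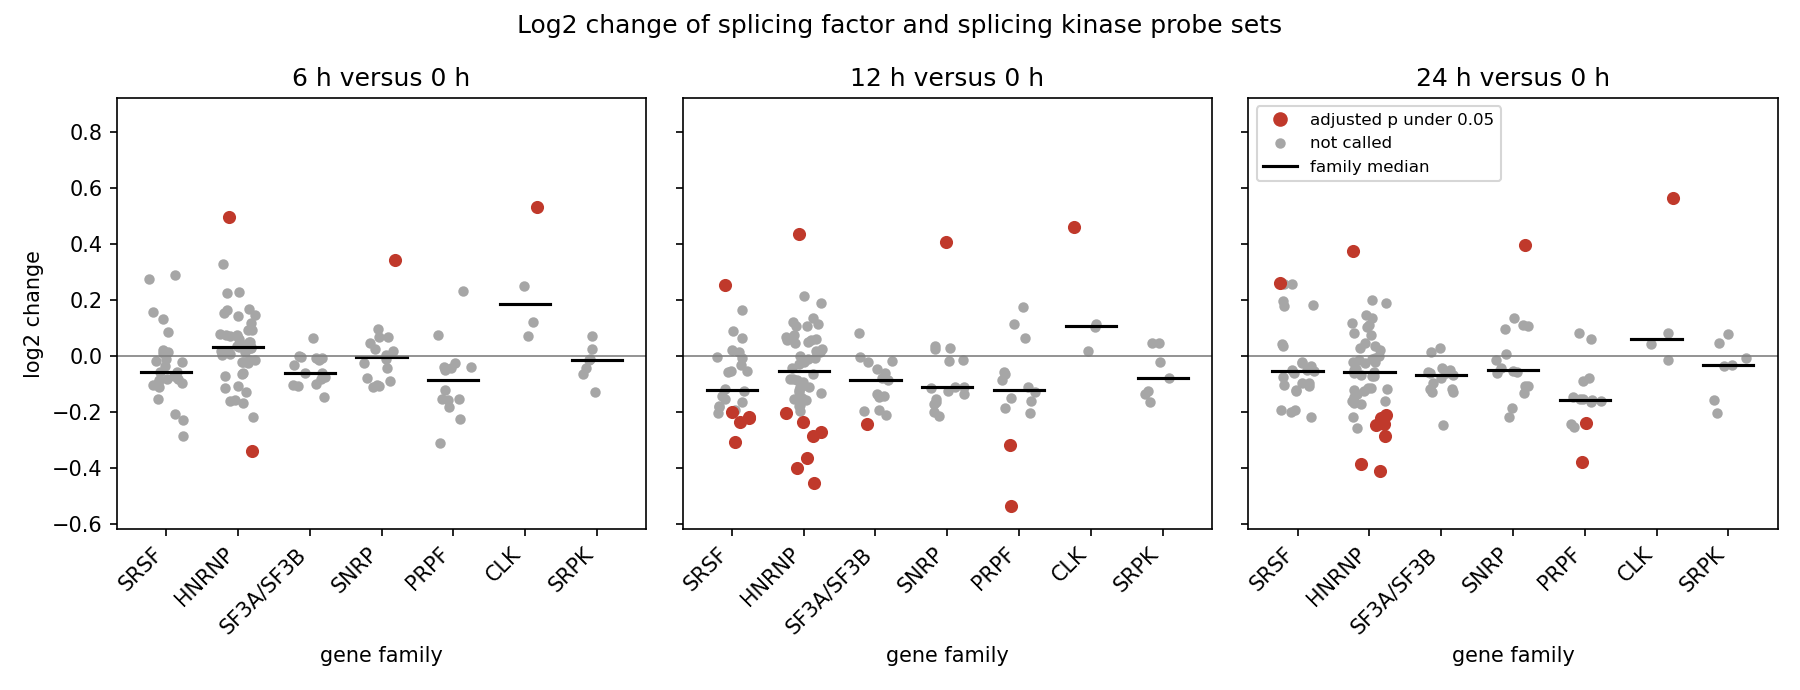
Log2 change of each of the 130 member probe sets (points) from 0 h to 6, 12 and 24 h, by gene family; red points passed the limma test at an adjusted p under 0.05 and black bars are family medians. Most points lie within 0.26 of 0 on the log2 scale, which is 1.2-fold, and the CLK point at 0.46 to 0.56 is CLK3.

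**Figure D2:**
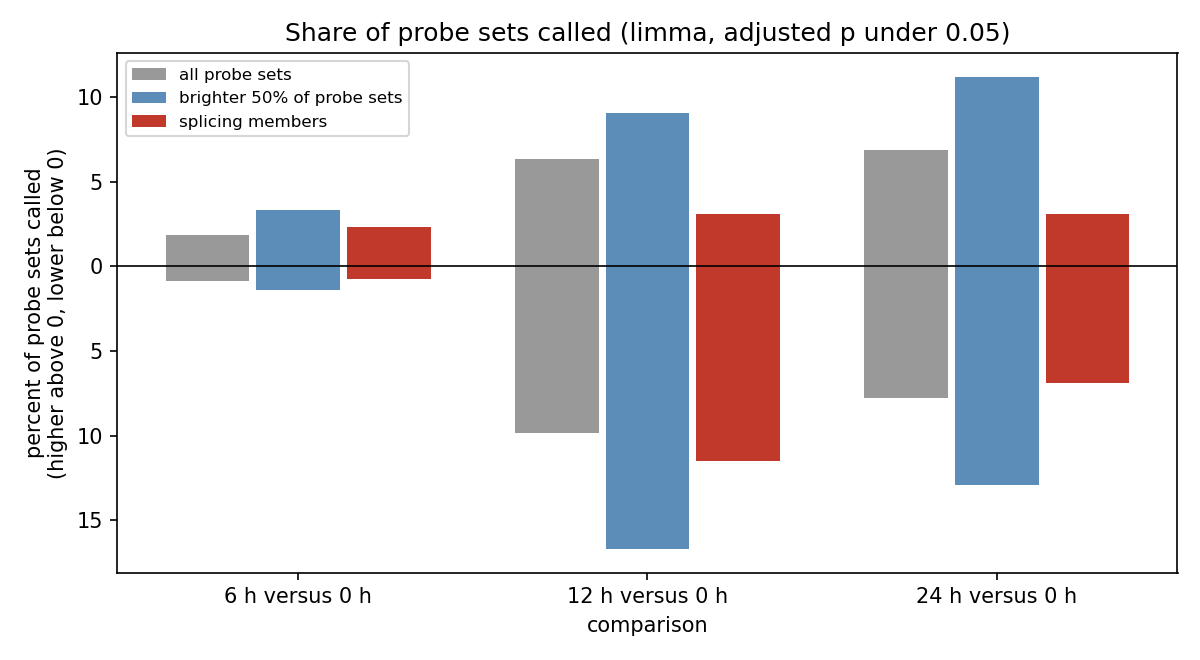
Percent of probe sets called higher (above 0) and lower (below 0) in each comparison with 0 h, for all 22215 probe sets, the brighter 50% of them and the 130 splicing members. At 12 h the members' 11.5% called lower lies between the 9.85% of all probe sets and the 16.7% of the brighter 50%.

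Over the whole time course, 23 member probe sets of 19 genes were called at 1 or more times against 0 h, and 107 were not called at any. For 43 genes no probe set was called. Calls at all 3 times were limited to 3 probe sets, those of CLK3 and SNRPE (215450_at), which rose, and of HNRNPUL1 (209675_s_at), which fell. A moderated F-test over the 3 comparisons with 0 h called 12 members (9.23%), against 12.6% of all probe sets.

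These counts depend on the 0 h arrays, which every comparison with 0 h shares. Without 0 h replicate 1 or without 0 h replicate 2, the members called were 0 and 0 at 6 h, 4 and 3 at 12 h, and 3 and 3 at 24 h. Without 6 h replicate 1 or 2 they were 0 and 0 at 6 h, 12 and 12 at 12 h, and 7 and 7 at 24 h. Leaving out 12 h replicate 1 or 2 gave 10 and 8 at 12 h, and leaving out 24 h replicate 1 gave 6 at 24 h. These fits have fewer degrees of freedom, and without 0 h replicate 1 or 2 the calls over all probe sets dropped at each time as well. Where a comparison does not include a time, leaving out either array of that time gives the same result, which is 1 check and not 2. Fits of the compared groups alone called 10 members at 12 h and 6 at 24 h; beside single genes below, losses are given for left-out arrays and for rescaling.

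Among the kinases, CLK3 stood alone in passing the test, as 1 of 11 probe sets at each time. That is 9.09%, against 2.7%, 16.2% and 14.7% of all probe sets at 6, 12 and 24 h. CLK3 rose 1.44-fold by 6 h and stayed up, at 1.38-fold after 12 h and 1.48-fold after 24 h. CLK3 (202140_s_at) read 7.28 and 7.40 at 0 h, 7.85 and 7.89 at 6 h, 7.79 and 7.81 at 12 h, and 7.80 and 8.01 at 24 h on the log2 scale. All 6 hypoxic arrays lay above both 0 h arrays, and the 3 hypoxic times lay close together. The log2 changes were 0.53, 0.46 and 0.56, each with a standard error of 0.08, and the adjusted limma p was 0.0189, 0.0105 and 0.00469. The call at 24 h was kept in all 16 alternative analyses, that at 12 h was lost without 0 h replicate 1, and that at 6 h was lost without any 1 of the 0 h or 6 h arrays, with an adjusted p of up to 0.175. The change from 6 h to 24 h was 0.03, with a 95% confidence interval from −0.16 to 0.22.

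The other CLK genes did not pass the test. CLK1 (214683_s_at), whose kinase controls the splicing of its own transcript, read 8.59 and 8.71 at 0 h, 9.03 and 8.77 at 6 h, 8.71 and 8.82 at 12 h, and 8.79 and 8.68 at 24 h. Both 6 h arrays lay above both 0 h arrays but differed more from each other than the 0 h arrays did, and the change at 6 h was 0.25, with an interval from 0.02 to 0.48 and an adjusted p of 0.25. CLK2 (203229_s_at) read 9.64 and 9.76 at 0 h and 9.68 to 9.80 on the hypoxic arrays, which overlapped the 0 h arrays at 24 h. CLK4 (210346_s_at) read 9.49 and 9.45 at 0 h, 9.58 and 9.60 at 6 h, 9.44 and 9.53 at 12 h, and 9.54 and 9.37 at 24 h. Its intervals at 12 and 24 h ran from −0.15 to 0.19 and from −0.18 to 0.15. Whether the response of CLK3 differs from that of the other CLK genes was not tested.

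None of the 7 SRPK probe sets was called by limma at any time. Of all 11 kinase probe sets, 2, 2 and 1 had an unadjusted p under 0.05 at 6, 12 and 24 h. Of all 22215 probe sets, 3875, 6981 and 6366 did. SRPK1, the main cytoplasmic SR protein kinase, read 10.70 and 10.76 at 0 h, 10.81 and 10.70 at 6 h, 10.65 and 10.66 at 12 h, and 10.78 and 10.67 at 24 h in its brighter probe set (202200_s_at). The hypoxic arrays lay on both sides of the 0 h arrays, and the change at 24 h was −0.01, with an interval from −0.17 to 0.15. Its dimmer probe set (202199_s_at) had changes of −0.13, −0.16 and −0.21 at 6, 12 and 24 h, with an adjusted p of 0.176 at 24 h, where its arrays read 8.07 and 8.32. The 4 SRPK2 probe sets had changes between −0.14 and 0.08 over the 3 times. SRPK3 (206216_at), whose product is found mainly in striated muscle, read 8.72 and 8.72 at 0 h and 8.46 and 8.66 at 24 h, a change of −0.16 with an adjusted p of 0.213. Its 24 h arrays both lay below 0 h, but they differed from each other by more than the mean change.

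**Figure D3:**
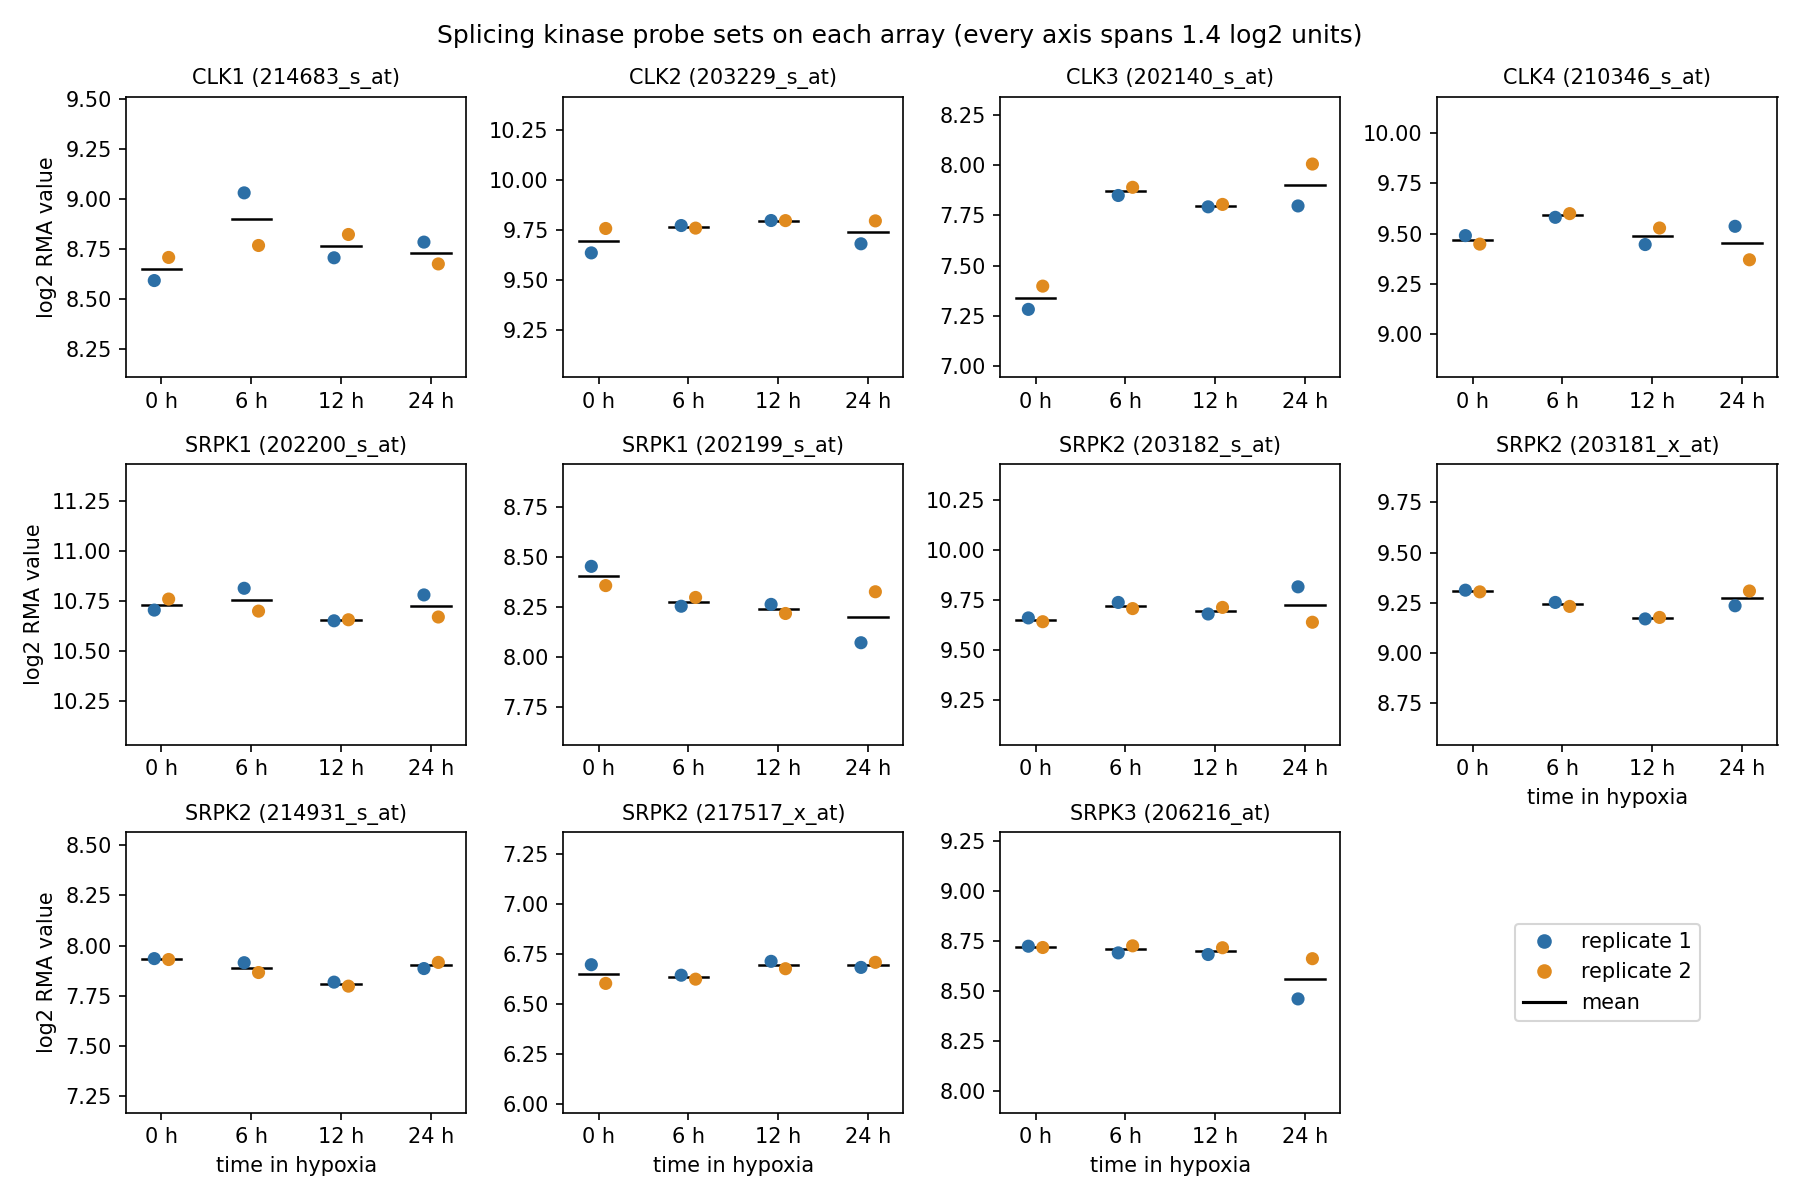
Log2 value of each kinase probe set on the 8 arrays (points, coloured by replicate number) with the mean of each time (bars); each panel spans 1.4 log2 units. CLK3 moves from 7.28 and 7.40 at 0 h to 7.79 or more on every hypoxic array, while the other 10 probe sets were not called at any time.

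Hypoxia acts on many promoters through the hypoxia-inducible factors, whose binding motif has the core ACGTG or GCGTG. Both were searched on both strands in RefSeq promoter windows (assembly GRCh38.p14, the 250 bases before a gene's start), as a description of a feature the name rule did not use. RefSeq windows were given for 57 of the 62 member genes, 82 windows in all. Of these, 63 (76.8%) held a match, against 43.2% of all 35116 windows of that length. ACGTG was in 35.4% of the members' windows and 18.5% of all, and GCGTG in 58.5% and 32.2%. The members' windows also held more CpG dinucleotides, a median of 21 against 11, and had a higher GC content, 62.2% against 58.0%; the part of base composition in the motif share was not tested. Windows are shown for 3 genes whose calls are described in most detail, CLK3 and HNRNPD, which rose, and PRPF4, which fell. They lie at chr15:74608122-74608371 and chr15:74615586-74615835 for 2 starts of CLK3, on the plus strand, at chr4:82373992-82374241 for HNRNPD, on the minus strand, and at chr9:113275408-113275657 for PRPF4, on the plus strand. Capitals mark matches of either motif on either strand, read 5′ to 3′ along the gene.
CLK3, first window: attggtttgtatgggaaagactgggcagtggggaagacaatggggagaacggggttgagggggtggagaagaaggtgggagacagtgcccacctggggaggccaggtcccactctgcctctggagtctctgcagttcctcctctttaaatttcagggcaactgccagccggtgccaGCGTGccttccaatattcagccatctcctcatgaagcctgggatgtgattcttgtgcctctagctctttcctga
CLK3, second window: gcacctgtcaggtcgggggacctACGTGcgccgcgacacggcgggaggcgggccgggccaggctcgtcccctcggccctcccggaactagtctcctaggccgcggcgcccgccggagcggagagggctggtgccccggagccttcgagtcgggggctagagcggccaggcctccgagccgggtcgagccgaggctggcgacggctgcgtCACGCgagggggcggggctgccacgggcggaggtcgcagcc
HNRNPD: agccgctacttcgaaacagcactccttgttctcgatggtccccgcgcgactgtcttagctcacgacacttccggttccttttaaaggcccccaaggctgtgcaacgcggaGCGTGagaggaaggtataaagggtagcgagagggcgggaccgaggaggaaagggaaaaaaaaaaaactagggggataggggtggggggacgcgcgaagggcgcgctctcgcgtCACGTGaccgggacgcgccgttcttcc
PRPF4: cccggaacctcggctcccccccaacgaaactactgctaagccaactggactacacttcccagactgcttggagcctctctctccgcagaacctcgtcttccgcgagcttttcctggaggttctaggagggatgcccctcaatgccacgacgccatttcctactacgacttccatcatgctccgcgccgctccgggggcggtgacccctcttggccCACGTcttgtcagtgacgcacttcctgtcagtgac
The first CLK3 window held 1 GCGTG match and 3 CpG, and the second 1 match of each motif and 35 CpG. The HNRNPD window held 1 GCGTG match and the palindrome CACGTG, which counts as an ACGTG match on both strands. The PRPF4 window held 1 ACGTG match, on the opposite strand. A match is not a binding site, and among the 3 genes shown those that rose and the one that fell all held one. The windows of SRSF5, which rose at 12 h, and of HNRNPAB, which fell, held no match.

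Transcripts of SR proteins had 5 of their 6 calls at 12 h downward. Those 5 made up 19.2% of the SRSF probe sets, against 9.85% of all probe sets and 16.7% of the brighter 50% called lower. Of 26 SRSF probe sets for 9 genes, 6 were called at 12 h, 5 lower and 1 higher (23.1%, against 16.2% of all probe sets and 25.7% of the brighter 50%), after 0 at 6 h (limma; 5 at an unadjusted p under 0.05) and before 1 at 24 h. At 6 h 3875 of all 22215 probe sets had an unadjusted p under 0.05. At 12 h 20 of the 26 SRSF probe sets (76.9%) had a change below 0. Below 0 were 48.9% of all probe sets and 61.9% of the brighter 50%. The family median was −0.06, −0.12 and −0.05 at the 3 times. SRSF10, which represses splicing when dephosphorylated after heat shock, had the largest fall. Its probe set 213594_x_at read 10.12 and 10.16 at 0 h, 10.07 and 10.04 at 6 h, 9.87 and 9.80 at 12 h, and 10.03 and 10.10 at 24 h. Only the 12 h arrays stood clearly below 0 h, by 1.24-fold (log2 change −0.31 ± 0.06 SE, adjusted p = 0.0151), and at 24 h the change was −0.08 (adjusted p = 0.465). The step from 12 h to 24 h, 0.23, did not pass the test (adjusted p = 0.155), and the 12 h call was lost without 0 h replicate 1, without 0 h replicate 2 or without 12 h replicate 2. The other 3 SRSF10 probe sets had 12 h changes between −0.17 and −0.03 and were not called.

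Smaller falls at 12 h were called for SRSF1, SRSF4, SRSF7 and SRSF8. SRSF7, an SR protein with a zinc knuckle, read 12.23 and 12.28 at 0 h, 12.04 and 12.06 at 6 h, 12.04 and 12.03 at 12 h, and 12.13 and 12.14 at 24 h in probe set 214141_x_at. Its hypoxic arrays all lay below 0 h, lowest at 12 h, where it fell 1.17-fold (−0.22 ± 0.06 SE, adjusted p = 0.0322). SRSF4 (201696_at) fell 1.15-fold (adjusted p = 0.0493), SRSF8 (213152_s_at) 1.18-fold (adjusted p = 0.0417) and SRSF1, the founding SR protein, 1.16-fold in probe set 208863_s_at (adjusted p = 0.0429). The calls of SRSF1, SRSF4, SRSF7 and SRSF8 were each lost without any 1 of the 0 h, 6 h or 12 h arrays, and all but that of SRSF1 also after a further quantile normalization. Centring each array ended the calls of SRSF1 and SRSF4, and modelling a variance trend ended that of SRSF8. SRSF1 (208863_s_at), SRSF4 and SRSF8 lie outside the rule for named genes and were named after their values were seen. SRSF5 was the single SR gene that rose at 12 h: probe set 203380_x_at read 10.41 and 10.48 at 0 h, 10.57 and 10.64 at 6 h, 10.74 and 10.66 at 12 h, and 10.57 and 10.69 at 24 h. All hypoxic arrays lay above 0 h, and the 12 h rise was 1.19-fold (0.25 ± 0.07 SE, adjusted p = 0.047), a call lost without any 1 of the same 6 arrays. The other SRSF5 probe sets had 12 h changes of 0.06 and −0.01. SRSF3 (208672_s_at), which limits its own level through an exon that stops translation, read 12.88 to 13.00 on all 8 arrays.

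At 24 h the dimmest SRSF1 probe set went the other way. The probe set 201741_x_at read 6.78 and 6.85 at 0 h, 6.77 and 6.81 at 6 h, 6.95 and 7.00 at 12 h, and 7.08 and 7.06 at 24 h. Its values at 12 and 24 h lay above all 4 earlier arrays, and it rose 1.2-fold by 24 h (0.26 ± 0.06 SE, adjusted p = 0.0262), a call lost without any 1 of the 0 h, 6 h or 24 h arrays. The 3 brighter SRSF1 probe sets had 24 h changes of −0.13, −0.22 and −0.20. SRSF11, an SR-related protein, was singled out after its values were seen, because 2 of its probe sets (200685_at and 213742_at) had the same uncalled pattern, with changes of 0.28 and 0.29 at 6 h, 0.02 and −0.01 at 12 h, and 0.26 and 0.26 at 24 h. The brightest SRSF11 probe set, 200686_s_at, was also not called. Its change was smaller than theirs by 0.19 and 0.20 at 6 h and by 0.305 and 0.306 at 24 h. Those differences did not pass the limma test.

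The hnRNP genes are the largest family, and their share of calls was near that of all probe sets. Of 48 probe sets for 18 genes, 2, 8 and 8 were called at 6, 12 and 24 h, or 4.17%, 16.7% and 16.7%, against 2.7%, 16.2% and 14.7% of all probe sets and 4.74%, 25.7% and 24.1% of the brighter 50%. At 12 and at 24 h, 7 were lower and 1 higher. The 7 made up 14.6% of the family at each time. Called lower at 12 and 24 h were 9.85% and 7.8% of all probe sets and 16.7% and 12.9% of the brighter 50%. HNRNPUL1, a nuclear protein related to HNRNPU that takes part in RNA processing and the DNA damage response, fell at all 3 times. Its probe set 209675_s_at read 8.70 and 8.73 at 0 h, 8.35 and 8.40 at 6 h, 8.25 and 8.27 at 12 h, and 8.26 and 8.35 at 24 h. Every hypoxic array lay below both 0 h arrays. The falls were 1.27-fold, 1.37-fold and 1.33-fold (log2 −0.34, −0.46 and −0.41, SE 0.06 each, adjusted p = 0.0319, 0.00369 and 0.00473). The calls at 12 and 24 h were kept in all 15 alternatives, and that at 6 h was lost without any 1 of the 0 h or 6 h arrays. The brighter HNRNPUL1 probe set, 208713_at, was not called, with changes of 0.04, −0.18 and −0.07.

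HNRNPAB and HNRNPUL2, each with 1 probe set, also fell at 12 and 24 h. HNRNPAB (201277_s_at), an RNA-binding protein of the A/B type, read 12.54 and 12.57 at 0 h, 12.35 and 12.32 at 6 h, 12.15 and 12.16 at 12 h, and 12.21 and 12.33 at 24 h. The fall was deepest at 12 h, at 1.32-fold (−0.40 ± 0.06 SE, adjusted p = 0.00641), and was 1.22-fold at 24 h (−0.29, adjusted p = 0.0228). The 12 h call was lost without 0 h replicate 2, and the 24 h call without 0 h replicate 1, 0 h replicate 2 or 24 h replicate 1. HNRNPUL2 (222264_at) read 7.24 and 7.31 at 0 h, 7.11 and 7.13 at 6 h, 6.96 and 6.86 at 12 h, and 6.78 and 7.00 at 24 h. It fell 1.29-fold by 12 h and 1.31-fold by 24 h (adjusted p = 0.0239 and 0.02). Its calls were lost without 0 h replicate 1 or 2, and also without replicate 2 of 12 h (12 h call) or replicate 1 of 24 h (24 h call).

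Further falls were small. HNRNPL, which binds CA repeats and mediates hypoxic stabilisation of VEGFA messenger RNA in other cells, fell 1.22-fold at 12 h in probe set 202072_at (−0.29 ± 0.06 SE, adjusted p = 0.0183); its arrays read 10.83 and 10.77 at 0 h and 10.51 and 10.52 at 12 h, and at 24 h the change was −0.16 (adjusted p = 0.116). HNRNPR (208765_s_at) fell 1.18-fold at 12 h (adjusted p = 0.0463). Both genes lie outside the rule for named genes; the HNRNPL call was lost without 0 h replicate 1, 0 h replicate 2 or 12 h replicate 2, and the HNRNPR call without any 1 of the 0 h, 6 h or 12 h arrays or after further quantile normalization. HNRNPA0 (201055_s_at) fell 1.18-fold at 24 h (adjusted p = 0.0333), from 10.18 and 10.26 to 9.95 and 10.00, a call lost without any 1 of the 0 h, 6 h or 24 h arrays. The brighter probe sets of HNRNPL (35201_at), HNRNPR (208766_s_at) and HNRNPA0 (201054_at) were not called at these times. The called probe sets differed from them in change by −0.16 and −0.21 at 12 h and −0.26 at 24 h. These differences did not pass the limma test (adjusted p = 0.283, 0.237 and 0.11). HNRNPK (200775_s_at), a poly(C)-binding protein, and SRSF3 belong to the large group with no call, and HNRNPK read 12.59 to 12.72 on all 8 arrays.

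HNRNPA1, a repressor of exon inclusion, changed course between 6 and 24 h. Its probe set 222040_at read 9.04 and 9.08 at 0 h, 9.20 and 9.22 at 6 h, 9.09 and 9.06 at 12 h, and 8.85 and 8.78 at 24 h. The 6 h arrays were the highest and the 24 h arrays the lowest. The change from 0 h was 0.15 at 6 h (adjusted p = 0.249) and −0.25 at 24 h (adjusted p = 0.0283, 1.19-fold lower). Another HNRNPA1 probe set, 221919_at, named after its values were seen, had changes of 0.23, 0.00 and −0.26 that were not called, and the brightest, 214280_x_at, had 0.07, 0.07 and −0.02. The call of 222040_at at 24 h was lost without 24 h replicate 2 and without any 1 of the 0 h or 6 h arrays.

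HNRNPD and HNRNPDL, close relatives that also bind AU-rich elements, each had 1 probe set that rose. HNRNPD (also known as AUF1) rose early: 213359_at read 9.70 and 9.67 at 0 h, 10.21 and 10.15 at 6 h, 10.08 and 10.16 at 12 h, and 9.83 and 9.76 at 24 h. It was 1.41-fold higher at 6 h and 1.35-fold higher at 12 h (log2 0.49 and 0.43, SE 0.06 each, adjusted p = 0.0086 and 0.00492) and had a change of 0.11 at 24 h (adjusted p = 0.306). The 12 h call was kept in all 15 alternatives, and that at 6 h was lost without any 1 of the 0 h or 6 h arrays. HNRNPDL rose late: 209068_at read 9.46 and 9.48 at 0 h, 9.51 and 9.53 at 6 h, 9.59 and 9.56 at 12 h, and 9.87 and 9.81 at 24 h. The 24 h arrays lay above all others, 1.3-fold higher than 0 h (0.37 ± 0.06 SE, adjusted p = 0.00555), a call lost without 0 h replicate 1. Other HNRNPDL probe sets fell: 209067_s_at by 1.21-fold at 12 h and 1.17-fold at 24 h (adjusted p = 0.023 and 0.0464), and 201993_x_at by 1.15-fold and 1.16-fold (adjusted p = 0.0449 and 0.0428). The calls of these falls were lost without either 0 h array, and, except for that of 209067_s_at at 12 h, without either 6 h array. Those of 201993_x_at were also lost without any 1 of the 12 h arrays, that at 12 h after centring or further quantile normalization, and that at 24 h without either 24 h array. Those of 209067_s_at were also lost without 12 h replicate 1 at 12 h and without either 24 h array at 24 h.

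The genes of the U2-associated SF3A and SF3B complexes stayed in narrow limits. All 15 probe sets of 8 genes were within 1.2-fold of 0 h at each time, as were the 7 SRPK probe sets, and 1 was called, SF3A3 at 12 h (6.67%, against 16.2% of all probe sets). SF3A3, a subunit of the branch point complex, read 9.52 and 9.55 at 0 h, 9.39 and 9.39 at 6 h, 9.28 and 9.31 at 12 h, and 9.40 and 9.42 at 24 h (203818_s_at). It was lowest at 12 h, 1.18-fold below 0 h (−0.24 ± 0.05 SE, adjusted p = 0.0238), a call lost without any 1 of the 0 h or 12 h arrays and after further quantile normalization. SF3B4 (209044_x_at) had the family's lowest uncalled change at 24 h, −0.25 (adjusted p = 0.0801), and SF3A1 (216457_s_at) had −0.10. SF3B1, the branch point subunit often mutated in leukaemias, read 12.04 to 12.18 on all 8 arrays in probe set 201071_x_at.

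Among the SNRP genes, which encode Sm and other small nuclear ribonucleoprotein proteins, 1 of 16 probe sets was called, at all 3 times, and it belonged to SNRPE (6.25%, against 2.7%, 16.2% and 14.7% of all probe sets). SNRPE is a core protein of the Sm ring. Its probe set 215450_at read 11.31 and 11.25 at 0 h, 11.66 and 11.58 at 6 h, 11.70 and 11.67 at 12 h, and 11.66 and 11.69 at 24 h. The hypoxic arrays lay together above 0 h, by 1.27-fold, 1.32-fold and 1.31-fold (log2 0.34, 0.41 and 0.39, SE 0.06 each, adjusted p = 0.0326, 0.00573 and 0.0059). The calls at 12 and 24 h were lost without 0 h replicate 2, and that at 6 h without any 1 of the 0 h or 6 h arrays. SNRPC of the U1 particle (201342_at) and SNRPB2 of the U2 particle (202505_at) had 24 h changes of −0.22 and −0.19 that were not called (adjusted p = 0.0788 and 0.0649). The family median was −0.01, −0.11 and −0.05 at the 3 times.

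The PRPF genes had the lowest family median at 24 h, −0.16, after −0.09 at 6 h and −0.12 at 12 h, and at 12 and at 24 h the same 2 of 14 probe sets were called (14.3%, against 16.2% and 14.7% of all probe sets). Both belong to PRPF4, a component of the U4/U6 particle. PRPF4 was the only member gene with several probe sets in which every one was called. The probe set 209162_s_at read 9.46 and 9.44 at 0 h, 9.12 and 9.16 at 6 h, 8.95 and 8.88 at 12 h, and 8.95 and 9.19 at 24 h. The probe set 209161_at read 10.71 and 10.69, 10.49 and 10.45, 10.36 and 10.39, and 10.46 and 10.45 at the same times. In both, all hypoxic arrays lay below 0 h and the lowest were at 12 h. The falls at 12 h were 1.45-fold and 1.25-fold (−0.54 ± 0.08 and −0.32 ± 0.06 SE, adjusted p = 0.00652 and 0.00929), and those at 24 h were 1.3-fold and 1.18-fold (adjusted p = 0.0235 and 0.0269). The 12 h calls of both were lost without 0 h replicate 1 or 2; the 24 h call of 209162_s_at was lost without these or 24 h replicate 1, and that of 209161_at without any 1 of the 0 h, 6 h or 24 h arrays. PRPF8, the large protein at the spliceosome's centre, had a 24 h change of −0.16 (200000_s_at, adjusted p = 0.17), and PRPF18, a factor of the second step of splicing, had −0.17 (221547_at, adjusted p = 0.16).

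**Figure D4:**
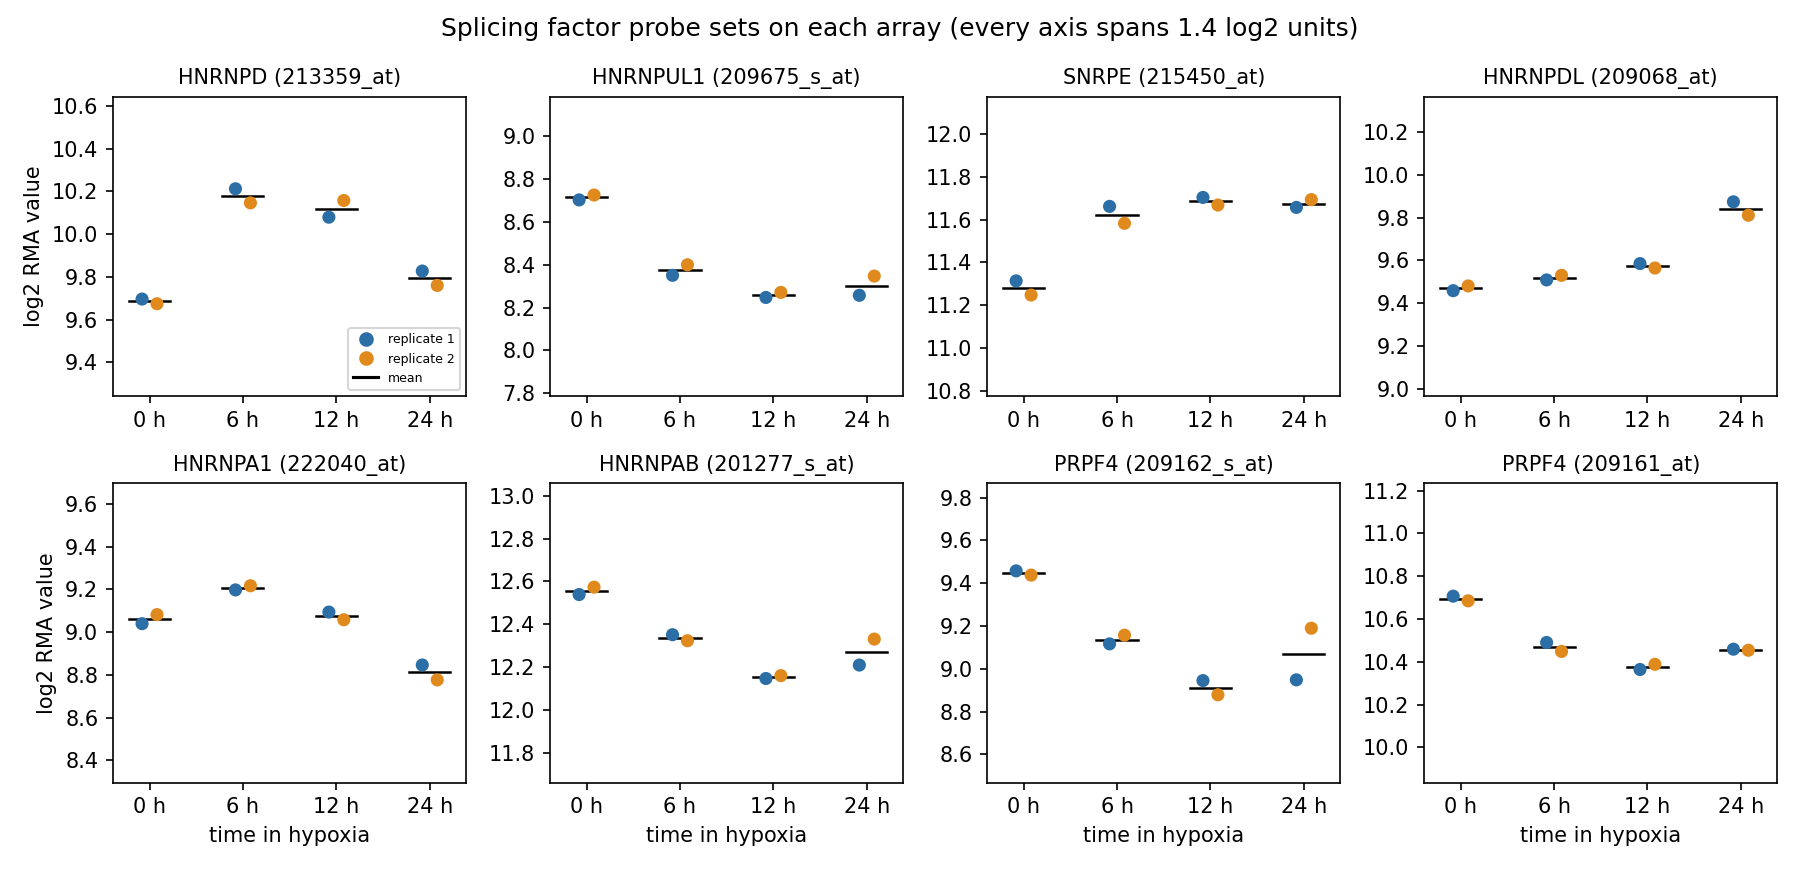
Log2 value of 8 splicing factor probe sets on the 8 arrays (points, coloured by replicate number) with the mean of each time (bars); each panel spans 1.4 log2 units. The probe sets are the 8 splicing factor members with the smallest F-test p. SNRPE is up on all hypoxic arrays, HNRNPD is up at 6 and 12 h, HNRNPDL at 24 h, and both PRPF4 probe sets, HNRNPUL1, HNRNPAB and HNRNPA1 are lowest at 12 or 24 h.

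Several of the calls rest on 1 of several probe sets of a gene. At 12 h, 11 of the 12 genes called through any of several probe sets had other probe sets that were not called. The difference between 2 probe sets of one gene was therefore tested directly, each further probe set against the brightest of its gene, over 7101 such pairs of the array. Among 68 member pairs in 36 genes, 0, 2 and 3 were called at 6, 12 and 24 h, or 0%, 2.94% and 4.41%, against 0.0282%, 2.58% and 3.48% of all pairs. HNRNPD 213359_at exceeded 221481_x_at in its change by 0.50 ± 0.08 SE at 12 h (adjusted p = 0.0307), while 221481_x_at read 13.00 to 13.09 on all 8 arrays. SNRPE 215450_at exceeded 203316_s_at by 0.43 at 12 h and 0.46 at 24 h (SE 0.07 each, adjusted p = 0.0321 and 0.0204), and 203316_s_at had changes of 0.07, −0.02 and −0.06. HNRNPDL 209068_at exceeded 201993_x_at by 0.58 ± 0.08 SE at 24 h (adjusted p = 0.0129), and SRSF1 201741_x_at exceeded 211784_s_at by 0.38 ± 0.07 SE (adjusted p = 0.0372). In these 4 genes the probe sets of one gene changed by different amounts. Which transcripts each probe set detects was not examined, and the part of cross-hybridisation was not tested.

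**Figure D5:**
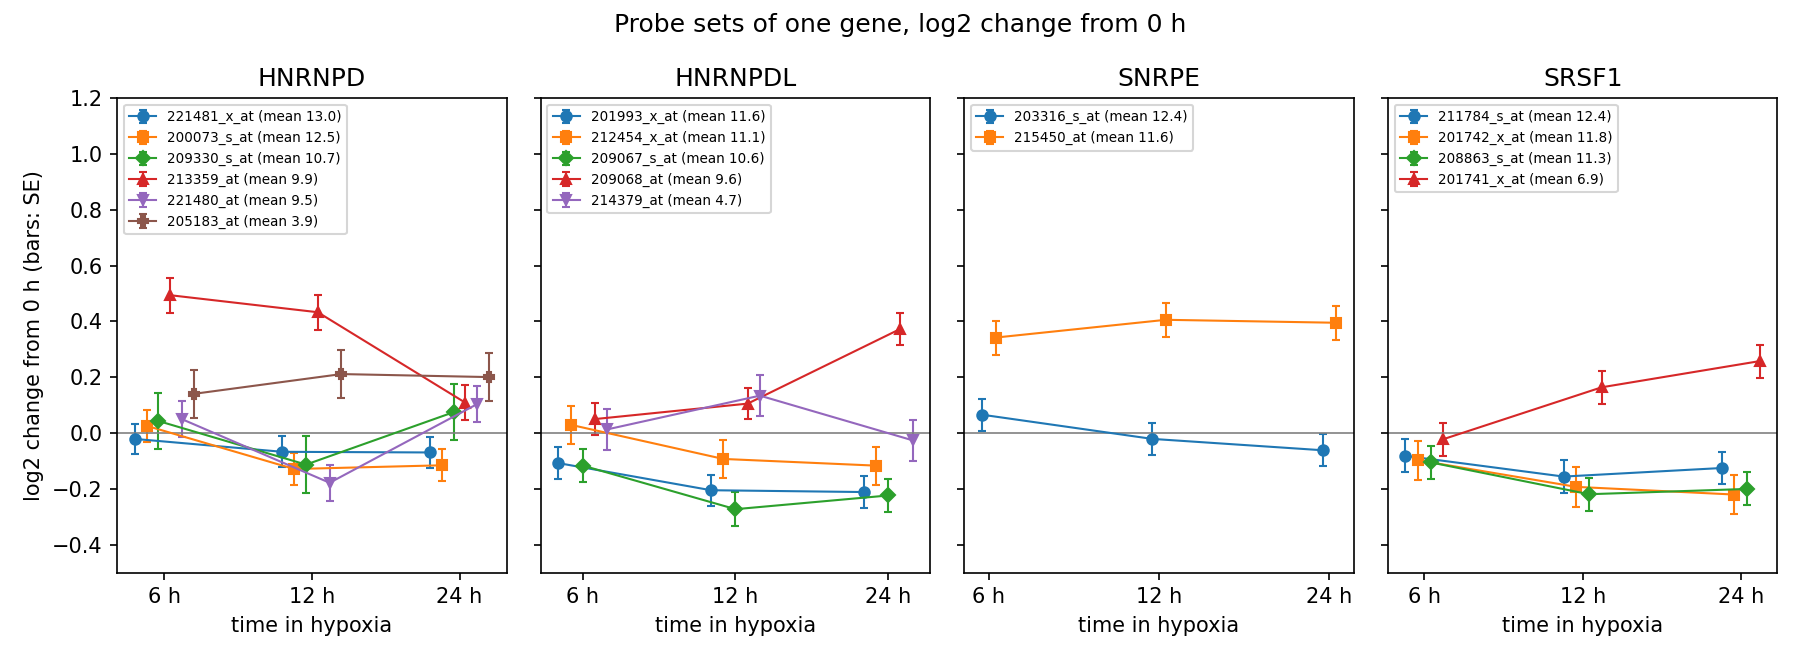
Log2 change from 0 h of every probe set of HNRNPD, HNRNPDL, SNRPE and SRSF1 at 6, 12 and 24 h, with the standard error of the fit (bars); the legends give each probe set's mean over all arrays. In each gene 1 probe set was called as differing from the brightest one, lying above it by 0.50 for HNRNPD at 12 h and by 0.58, 0.46 and 0.38 for HNRNPDL, SNRPE and SRSF1 at 24 h.

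Between hypoxic times few members moved. From 6 h to 12 h limma called 0 of 130 (18 at an unadjusted p under 0.05), against 0.117% of all probe sets, and from 12 h to 24 h 0 (13 unadjusted), against 0.144%. Of all 22215 probe sets, 4647 and 3653 had an unadjusted p under 0.05 in these comparisons, in the same order. From 6 h to 24 h 3 members were called, against 1.48% of all probe sets. HNRNPA1 222040_at fell 1.32-fold (−0.40 ± 0.06 SE, adjusted p = 0.0249), HNRNPD 213359_at fell 1.31-fold (−0.39 ± 0.06 SE, adjusted p = 0.034) and HNRNPDL 209068_at rose 1.25-fold (0.32 ± 0.06 SE, adjusted p = 0.0444). In each, the 6 h and 24 h arrays did not overlap. All 3 calls were lost without any 1 of the 0 h, 6 h or 24 h arrays. The dim HNRNPH1 probe set 213472_at had a larger difference, −0.49, which did not pass the test (adjusted p = 0.124).

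The other genes of the pathway were read from 6 lists of 179 genes, of which 143 were measured, each by its brightest probe set. Over all 11963 genes read this way, 2.83%, 16.9% and 15.9% were called at 6, 12 and 24 h. Of them, 2168 had an unadjusted p under 0.05 at 6 h. In the lists, limma called 0 at 6 h (23 at an unadjusted p under 0.05), 34 at 12 h (4 higher and 30 lower, 23.8%) and 23 at 24 h (4 higher and 19 lower, 16.1%). By direction, 2.8% of the list genes were higher and 21.0% lower at 12 h, against 6.55% and 10.3% of all genes, and 2.8% and 13.3% at 24 h, against 7.86% and 8.02%. Over the brighter 50% of probe sets, 9.03% were higher and 16.7% lower at 12 h, and 11.2% and 12.9% at 24 h. The median log2 change of the lists was −0.06, −0.09 and −0.07, against −0.02, 0.00 and −0.015 for all genes read this way. Without 0 h replicate 1 or 2, the 12 h count was 1 and 2 and the 24 h count 2 and 3; without 12 h replicate 1 or 2 or without either 6 h array, the 12 h count was 22, 18, 22 and 22; and the 24 h count was 11 without 24 h replicate 1 and 13 without either 6 h array.

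In the list of genes for the assembly and modification of Sm proteins, 1 of 15 rose and 5 fell at 12 h, and 1 rose and 2 fell at 24 h. The falls were 33.3% and 13.3% of the list, against 10.3% and 8.02% of all genes read by their brightest probe set. Over the brighter 50% of probe sets, 16.7% and 12.9% were lower. The rise at both times was that of JMJD6, and every other call in the list was a fall. JMJD6, an oxygen-dependent lysyl hydroxylase of splicing factors such as U2AF2, rose by 0.41 log2 units at 12 h and 0.62 at 24 h (adjusted p = 0.0121 and 0.00244). Its arrays read 8.88 and 9.00 at 0 h, 9.34 and 9.25 at 6 h, 9.39 and 9.31 at 12 h, and 9.50 and 9.62 at 24 h, all hypoxic arrays above 0 h. WDR77, a subunit of the methylosome that methylates Sm proteins, fell by 0.43 at both times (adjusted p = 0.00882 and 0.00808). The JMJD6 call at 12 h was lost without 0 h replicate 1, and both WDR77 calls without either 0 h array. Of 20 further SR-related genes, 2 fell at 12 h and 5 at 24 h, among them SCAF11 (−0.24 and −0.34) and THRAP3 (−0.29 and −0.36), proteins of the spliceosome and of messenger RNA processing, whose calls were lost without either 0 h array. The SCAF11 call at 12 h was also lost without either 12 h array, and the THRAP3 calls without either 6 h array, without 12 h replicate 1 or after further quantile normalization at 12 h, and without 24 h replicate 1 at 24 h.

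Among 37 other regulators of alternative splicing, 1 rose and 7 fell at 12 h, and 1 rose and 5 fell at 24 h. The falls were 18.9% and 13.5% of them, against 10.3% and 8.02% of all genes read by their brightest probe set. MBNL3, a muscleblind protein that represses muscle differentiation, had the largest fall of the lists, by 0.69 at 12 h and 0.68 at 24 h (SE 0.13, adjusted p = 0.0133 and 0.0144), from 6.67 and 6.46 at 0 h to 6.03 and 5.72 at 12 h and 5.81 and 5.96 at 24 h. ILF2, a nuclear RNA-binding protein, fell by 0.36 at both times (adjusted p = 0.0131 and 0.0134). The MBNL3 calls were lost without 0 h replicate 1, and that at 24 h also without 24 h replicate 1; both ILF2 calls were lost without either 0 h array. The 19 other kinase, phosphatase and SR import genes held 7 falls at 12 h and 2 at 24 h. These are 36.8% and 10.5% of that list, against the same 10.3% and 8.02% of all genes. TNPO1, a nuclear import receptor whose cargoes include HNRNPA1, read 12.37 and 12.38 at 0 h and 11.99 and 12.00 at 24 h (−0.38 ± 0.06 SE, adjusted p = 0.00485). HIPK2, a nuclear kinase, fell by 0.51 at 12 h (adjusted p = 0.00869) and had a change of −0.28 at 24 h (adjusted p = 0.0667), and its 12 h call was lost without 0 h replicate 2.

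The 47 other core spliceosome genes held 2 rises and 9 falls at 12 h, and 2 rises and 5 falls at 24 h. The falls were 19.1% and 10.6% of them, against 10.3% and 8.02% of all genes read by their brightest probe set. DDX42, an RNA helicase that associates with SF3B, fell by 0.33 and 0.26 (adjusted p = 0.0106 and 0.0263), and CWC25, a factor of the first step of splicing, by 0.22 and 0.31 (adjusted p = 0.0374 and 0.0104). These 4 calls were lost without either 0 h array. The DDX42 call at 24 h was also lost without any 1 of the 6 h or 24 h arrays, and the CWC25 call at 12 h without any 1 of the 6 h or 12 h arrays, after centring each array and after further quantile normalization. Of 5 exon junction complex genes, limma called 0 at each time, with 0, 0 and 2 at an unadjusted p under 0.05. Of all 11963 genes read by their brightest probe set, 2168, 3841 and 3614 had such a p.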

How the data were processed

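Expression was measured in 8 samples of 1 cell line on 3′-based arrays, 2 at each of 4 times. The authors deposited log2 probe set values made with RMA, per the submitters' processing notes; no version is given in the sources used here. RMA as usually run equalises the distribution of probe signals between arrays, so a change is relative to the other transcripts, and a change in total RNA cannot be seen. Arrays have no sequencing depth, and precision is limited by their number.

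Gene names came from the 2016 platform annotation, and all 130 members matched a RefSeq gene (GRCh38.p14) of the same symbol through the Entrez identifier. The members, the 6 gene lists, the marker lists and the rule for named genes were chosen with earlier results of these data known. Using limma 3.58.1 (R 4.3.3; lmFit, eBayes), a mean for each of the 4 times was fitted over the 8 arrays (4 residual and 3.7 prior degrees of freedom), without the 62 control probe sets and with no filter. Tests were two-sided, adjusted by the Benjamini-Hochberg method over 22215 probe sets in each comparison, and called at an adjusted p under 0.05. Intervals are 95% confidence intervals of the fit. The brightest probe set of a gene is the one with the highest mean over all arrays. The test between probe sets of one gene applied the same fit to differences of log2 values and was added after the values were seen.

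Named were all kinase probe sets; for each comparison with 0 h, the 6 largest rises and the 6 largest falls called without overlap between arrays; in each other family, the 3 smallest F-test p-values; genes called in opposite directions; the largest changes between hypoxic times; and, in each gene list, the 2 called genes with the smallest F-test p. SRSF3, HNRNPK, PRPF8, SF3B1 and further probe sets of the named genes were added after their values were seen, and other exceptions are marked. The procedure was tested on simulated data with known changes between 6 h and 0 h. It recovered 10.5%, 52.4% and 89.4% of changes of 0.3, 0.5 and 1 log2 units, and 3.94% of its calls were false. Promoter motifs were counted in RefSeq windows as a description. The alternatives covered scaling, a variance trend, filters on dim probe sets, 1 probe set a gene, the groups compared alone, a replicate block and leaving out each array. Protein features and probe sequences were not analysed here.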

Additional observations from a re-analysis of the deposited data

Results flagged for a closer look

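For 3 member probe sets the change from 0 h differed between 6 h and 24 h by limma's test of that difference, which is the contrast of 24 h with 6 h. HNRNPA1 222040_at had a 24 h change lower than its 6 h change by a log2 difference of −0.40 (adjusted p = 0.0249), and both 24 h arrays lay below both 6 h arrays. HNRNPD 213359_at had a difference of −0.39 (adjusted p = 0.034), with the same separation of arrays. HNRNPDL 209068_at had a difference of 0.32 (adjusted p = 0.0444), with both 24 h arrays above both 6 h arrays. Over all alternatives the adjusted p ranged from 0.000488 to 0.194 for HNRNPA1, from 0.000336 to 0.247 for HNRNPD and from 0.000996 to 0.268 for HNRNPDL. Each difference kept its direction in all 15 alternatives and was no longer called without any 1 of the 0 h, 6 h or 24 h arrays, in a fit of the 2 groups alone, or with the replicate block.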

How the results depend on the processing

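Precision is limited by having 2 arrays a group, and dim probe sets are called less often. Over the member probe sets and the named genes of the lists, 12483 of the values under an alternative stayed on the same side of the threshold. A further 246 lost a call and 225 gained one, and none of the called values changed sign. Uncalled values did not all keep their direction. The members' median change from 12 h to 24 h was 0.0064 in the main fit and −0.0135 after further quantile normalization.

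Modelling a trend of the variance with intensity raised the calls of members to 14, 43 and 39 at 6, 12 and 24 h. These are 10.8%, 33.1% and 30.0%, against 8.6%, 22.7% and 21.0% of all probe sets. Members called rose to 8 from 6 h to 12 h, 7 from 12 h to 24 h and 16 from 6 h to 24 h. The F-test called 50 members (38.5%, against 24.9% of all probe sets). Calls in the lists rose to 16, 52 and 48. Calls over all probe sets were 1911, 5044 and 4671 at 6, 12 and 24 h. They were 1241, 711 and 1568 between hypoxic times in the same order, and 5533 in the F-test. Without the dimmer 50% of probe sets, members called were 11, 41 and 35 at 6, 12 and 24 h. These are 9.09%, 33.9% and 28.9%, against 18.7%, 41.9% and 40.5% of all probe sets kept. Between hypoxic times 5, 6 and 9 members were called, and 38 in the F-test. List genes were 14 at 6 h and 48 at 24 h. All calls were 2078, 4656 and 4494 against 0 h, 1231, 709 and 1537 between hypoxic times and 5101 in the F-test. Apart from the variance trend, in every alternative the members' share called at 12 and 24 h was below that of all probe sets. Without the dimmest 25%, members called were 24 at 24 h, 5 from 6 h to 24 h and 20 in the F-test, list genes 5 at 6 h and 37 at 24 h, and calls overall 1051 at 6 h and 236, 185 and 768 between hypoxic times. With 1 probe set a gene, which tests fewer features, members called were 1, 8 and 7 against 0 h, 0 from 6 h to 24 h and 4 in the F-test, list genes 3 at 6 h, and calls overall 2202 at 12 h and 2123 at 24 h. Fits of the compared groups alone, which use fewer arrays, called 10 and 6 members at 12 and 24 h and 0 from 6 h to 24 h, list genes 1, 22 and 14, and 2294 probe sets at 12 h and 0, 0 and 171 between hypoxic times. Further quantile normalization gave 1 and 22 list genes at 6 and 12 h and 74 calls overall from 12 h to 24 h, and centring each array gave 62 there. The cause of the other shifts was not tested.

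Deviations of same-numbered arrays from their group means correlated between −0.135 and 0.0842 over the 6 pairs of times. Whether same-numbered arrays share a pairing that affects some probe sets was not tested. With the replicate block, members called were 2 at 6 h, 12 at 12 h and 0 from 6 h to 24 h, list genes 14 at 24 h, and calls overall 334 at 6 h and 0, 0 and 129 between hypoxic times.

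Leaving out 1 array at a time gave 0 to 5, 3 to 20 and 3 to 12 members called at 6, 12 and 24 h, 0 to 3 from 6 h to 24 h, 0 to 0 in the other contrasts of hypoxic times and 0 to 11 in the F-test. The lists had 0 to 1, 1 to 38 and 2 to 24 calls. All probe sets had 84 to 650, 857 to 3949 and 951 to 3516 calls against 0 h, 0 to 1117, 0 to 302 and 19 to 452 between hypoxic times, and 417 to 3668 in the F-test. Among the member calls, those kept in every alternative were CLK3 at 24 h, HNRNPD 213359_at at 12 h and HNRNPUL1 209675_s_at at 12 and 24 h.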

Other observations

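The 19 splicing probe sets left out because their annotation holds several symbols were read apart from the members. Their median log2 change was 0.10, 0.05 and 0.14 at 6, 12 and 24 h, and limma called 1, 5 and 6 of them (1 higher; 2 higher and 3 lower; 5 higher and 1 lower). These are 5.26%, 26.3% and 31.6% of them, against 2.7%, 16.2% and 14.7% of all probe sets. Over the brighter 50% of probe sets 4.74%, 25.7% and 24.1% were called. At 24 h 26.3% of the 19 were called higher, against 6.86% of all probe sets and 11.2% of the brighter 50%. Transcripts of several copies cannot be told apart in such probe sets, and no test compared them with the members.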
